A study of Homo sapiens with 4 samples.

Results

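The 35 genes described here encode chaperones of the endoplasmic reticulum (ER), enzymes that form disulfide bonds in it, parts of the ER-associated degradation machinery, and sensors and transcription factors of the ATF6 and IRE1/XBP1 arms of the unfolded protein response. They were taken by gene symbol from a list that leaves out the targets of ATF4. All 35 were found among the 57768 genes of the files, and all 35 were among the 12491 genes with a mean FPKM (a gene's fragments, scaled to the length of its transcripts and to the size of the library) of at least 1 over the 4 libraries.

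The study used RNA-seq to ask how gene expression changes when an enhancer of C/EBPβ on chromosome 20 is deleted. Libraries 1 and 2 of WT cells were compared with libraries 1 and 2 of C/EBPβ enh-/- cells, in which CRISPR/Cas9 had removed both copies of that enhancer, and all 4 were labelled HepG2, an established human liver cancer cell line. The cells grew in medium with serum, and the labels name no stress agent. Whether the C/EBPβ enh-/- line is 1 clone, and whether libraries 1 and 2 of a genotype are separate cultures, is not given in the sources used here. P-values therefore measure the spread between these libraries, which may be technical.

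Proteins that enter the secretory pathway fold in the ER with the help of chaperones, of which HSPA5 (BiP) is the best known. When unfolded proteins build up, HSPA5 leaves the membrane sensors IRE1, ATF6 and PERK. IRE1 then splices XBP1 mRNA, ATF6 is cut in the Golgi to free a transcription factor, and both factors raise the transcription of chaperones, folding enzymes and degradation factors. PERK acts instead through ATF4. Hepatocytes secrete much of the protein of blood plasma and rely on this machinery. A gene-level FPKM shows neither the splicing of XBP1 nor the cleavage of ATF6, and neither was measured here.

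In these cells, no member passed the threshold between genotypes (adjusted p under 0.05 from limma with Benjamini-Hochberg adjustment), and the genotype difference was larger in size than both replicate differences for 10 of the 35, as it was for 40.3% of all tested genes. HSPA5 was 3.06-fold higher in C/EBPβ enh-/- library 1 than in library 2. MANF and PDIA4 were 3.15-fold and 2.77-fold higher in WT library 2 than in WT library 1. PDIA6, a disulfide isomerase, had the smallest p among the members. Set against WT cells, C/EBPβ enh-/- cells had 0.503 times the mean FPKM of PDIA6, with close replicates.

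Promoter elements link several members. ATF6 and XBP1 act through the ER stress response element (ERSE), which is CCAAT and CCACG 9 bases apart, and through ERSE-II, which is ATTGG and CCACG 1 base apart. In the RefSeq promoter table (GRCh38.p14, 250 bases before to 50 bases after each start site), 31 of the 35 members were found, with 38 promoters. DERL1, DERL3, PDIA3 and SEC24D were not in the table. An exact ERSE on either strand was found in 8 members (CALR, CANX, CRELD2, ERO1B, HSP90B1, HSPA5, PDIA6 and XBP1), against 0.0916% of the 27305 genes in the table. Counted by promoter, it was in 10 of 38, against 0.0769% of 35116. Overlapping promoter windows of CANX hold the same site, at −9, −151 and −189 from their start sites, so these 10 are not separate elements. ERSE-II was found in 3 members (HERPUD1, HYOU1 and SDF2L1), against 0.0696% of genes. The members were listed for the ATF6 and XBP1 arms, which act through these elements. Such an excess over all genes thus follows from the list. The element TGACG followed at once by TGG, bound by XBP1 and ATF6, was found in DNAJC10 and HYOU1, against 0.927% of genes, and in HYOU1 it overlaps an ERSE-II. The C/EBP sequence, TTGC and CAA 1 base apart, was found in 0 of the 31 members, against 3.22% of genes, so these letters are absent from the windows, and nothing is drawn from that about the factor. The CCAAT box alone, which is bound by NF-Y, was found in 28 of the 31 members, against 39.7% of genes.

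The 250 bases before the start site are printed for 5 members whose levels are described in full below, on the strand of the gene, with the ERSE or ERSE-II in capitals. They are HSPA5 (chr9:125241344-125241593, minus strand), HSP90B1 (chr12:103930160-103930409, plus strand), PDIA6 (chr2:10812786-10813035, minus strand, 1 of its 2 promoters), HERPUD1 (chr16:56931892-56932141, plus strand) and SDF2L1 (chr22:21642052-21642301, plus strand), all on GRCh38.p14.
HSPA5: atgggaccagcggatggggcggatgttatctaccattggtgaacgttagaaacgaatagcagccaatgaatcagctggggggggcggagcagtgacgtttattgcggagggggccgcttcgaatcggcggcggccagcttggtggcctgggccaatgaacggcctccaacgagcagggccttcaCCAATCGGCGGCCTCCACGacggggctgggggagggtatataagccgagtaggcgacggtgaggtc
HSP90B1: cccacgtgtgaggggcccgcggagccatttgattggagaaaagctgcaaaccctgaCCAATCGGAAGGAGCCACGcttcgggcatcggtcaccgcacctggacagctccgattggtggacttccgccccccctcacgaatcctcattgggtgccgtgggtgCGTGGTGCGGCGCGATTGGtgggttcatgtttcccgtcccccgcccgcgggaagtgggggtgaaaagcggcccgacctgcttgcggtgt
PDIA6: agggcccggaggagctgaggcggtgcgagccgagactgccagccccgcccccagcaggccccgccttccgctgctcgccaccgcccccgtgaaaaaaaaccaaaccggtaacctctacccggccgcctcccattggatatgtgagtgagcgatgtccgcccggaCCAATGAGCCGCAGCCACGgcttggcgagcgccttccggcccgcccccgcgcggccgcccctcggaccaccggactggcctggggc
HERPUD1: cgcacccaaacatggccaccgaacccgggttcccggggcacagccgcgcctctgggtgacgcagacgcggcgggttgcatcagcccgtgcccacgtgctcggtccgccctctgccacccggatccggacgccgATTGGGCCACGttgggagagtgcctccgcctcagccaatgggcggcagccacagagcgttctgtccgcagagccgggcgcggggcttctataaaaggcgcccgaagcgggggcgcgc
SDF2L1: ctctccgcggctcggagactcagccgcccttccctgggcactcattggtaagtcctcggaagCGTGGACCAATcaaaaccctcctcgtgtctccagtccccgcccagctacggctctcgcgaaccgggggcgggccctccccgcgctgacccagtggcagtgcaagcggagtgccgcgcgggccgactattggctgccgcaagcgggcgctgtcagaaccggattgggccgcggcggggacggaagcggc
The match in HSPA5 lies at positions −66 to −48 from the start site, that in PDIA6 at −86 to −68 and that in HERPUD1 at −117 to −107. HSP90B1 has 2 matches, one on each strand, and the match in SDF2L1 is on the opposite strand to the gene. Each is a match of letters, and binding was not measured.

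Over all genes, the FPKM totals of the libraries ranged from 484072.7 to 614111.2, and the 5 highest genes held 18.8% to 35.1% of them, most in C/EBPβ enh-/- library 1. Judged from the spacing of low values, that library was also the shallowest, at about 0.551 times the depth of WT library 1. CEBPB, the gene whose enhancer was deleted, was at 30.6 and 19.2 (WT libraries 1 and 2) and at 12.4 and 11.8 (C/EBPβ enh-/- libraries 1 and 2), without overlap, and its difference of −0.94 on the log2 scale (adjusted p = 0.125, limma) did not pass the threshold, and was −0.62 without WT library 1. Of 20 marker genes of hepatocytes and HepG2 cells, 19, including ALB, APOA1, AFP and HNF4A, did not reach an FPKM of 1 in any library, and APOC3 was at 0 in each. VTN alone reached it, and the 20 genes summed to 1.50 to 2.48 FPKM. The label HepG2 thus goes with libraries in which the defining transcripts of that line were near 0. Of 5 epithelial markers, the keratins KRT8, KRT18 and KRT19 were present, and EPCAM and CDH1 were below an FPKM of 1 in every library. The sum of the 5, nearly all keratin, was 648.2 and 797.3 in WT and 238.0 in each C/EBPβ enh-/- library. Of 6 fibroblast markers 4 reached an FPKM of 1, and their sum was 54.2 and 50.2 against 57.6 and 73.3. Endothelial and blood markers were below 1. The part of these values in the results was not tested, and in bulk RNA fewer cells of a type and less RNA per cell cannot be told apart.

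FPKM is given per length, so levels may be compared between genes. The lectin chaperones CANX and CALR were highest, with means over the 4 libraries of 570.3 and 451 FPKM, followed by HSP90B1 at 291. P4HB, SSR1, PDIA6 and PDIA3 followed at 126 to 160.0. The ranges of these 4 genes over the libraries overlapped, so their order is not firm. XBP1 was the highest of the sensors and transcription factors at 76.5. HSPA5 came 12th in the order at 55.5, above 90.4% of all tested genes, and its range of 26.3 to 109 spanned those of MANF (30.2 to 95.1) and PDIA4 (37.8 to 105). ERN1, DERL3 and ERO1B were lowest, at 2.07, 1.55 and 1.31. Summed over the members, the level was 2171 and 2869 FPKM (WT libraries) against 2898 and 2525 FPKM (C/EBPβ enh-/- libraries), so that WT library 1 stood lowest. As a share of all FPKM this was 0.398% and 0.534% in WT cells and 0.472% and 0.522% in C/EBPβ enh-/- cells. Without the 7 genes that are among the highest 5 of any library, the shares were 0.512% and 0.660% against 0.747% and 0.735%, and the groups no longer overlapped.

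**Figure D1:**
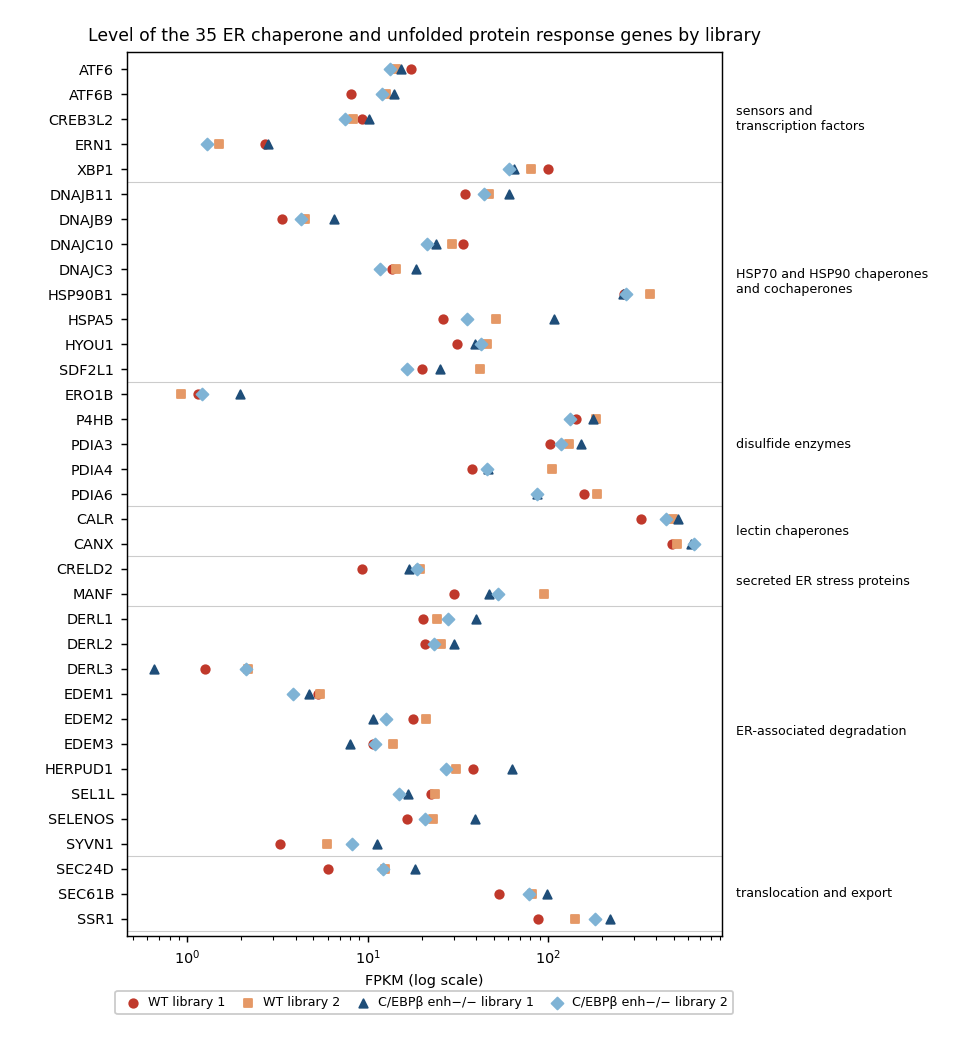
FPKM (log scale) of each of the 35 genes in the 4 libraries, 1 point per library, with the genes grouped by role. HSPA5 and HERPUD1 reach 109 and 63.4 in C/EBPβ enh-/- library 1 only, MANF and PDIA4 reach 95.1 and 105 in WT library 2 only, and both C/EBPβ enh-/- points of PDIA6 lie near 87, left of both WT points.

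Between genotypes, 0 of the 35 members were called lower and 0 higher, while 1.21% of all tested genes were called lower and 0.248% higher. At an unadjusted p under 0.05, 3 members were lower (PDIA6, EDEM2 and SEL1L) and 2 higher (SYVN1 and SSR1), against 16.9% and 3.86% of all tested genes. Both C/EBPβ enh-/- libraries lay below both WT libraries for 6 members (XBP1, DNAJC10, PDIA6, SEL1L, EDEM1 and EDEM2), where 37.5% of all tested genes did so, and above both for 5 (CANX, SYVN1, DERL1, ERO1B and SSR1), where 15.1% did. The second count depended on scaling. It became 12 when libraries were rescaled to the same total (16.4% of all tested genes), 14 when they were centred on the median gene (28.1%) and 15 when they were rescaled without the 7 highest genes (30.3%). The first count was 6 in each of these, while the share of all tested genes was 36.2%, 25.2% and 23.1%. The median log2 fold change of the members was 0.10, beside −0.14 for all tested genes, with 19 members above 0 and 16 below. Of the 12491 tested genes, 4677 were above 0 and 7814 below. Without C/EBPβ enh-/- library 1 the members' median was −0.03, and without library 2 it was 0.31.

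**Figure D2:**
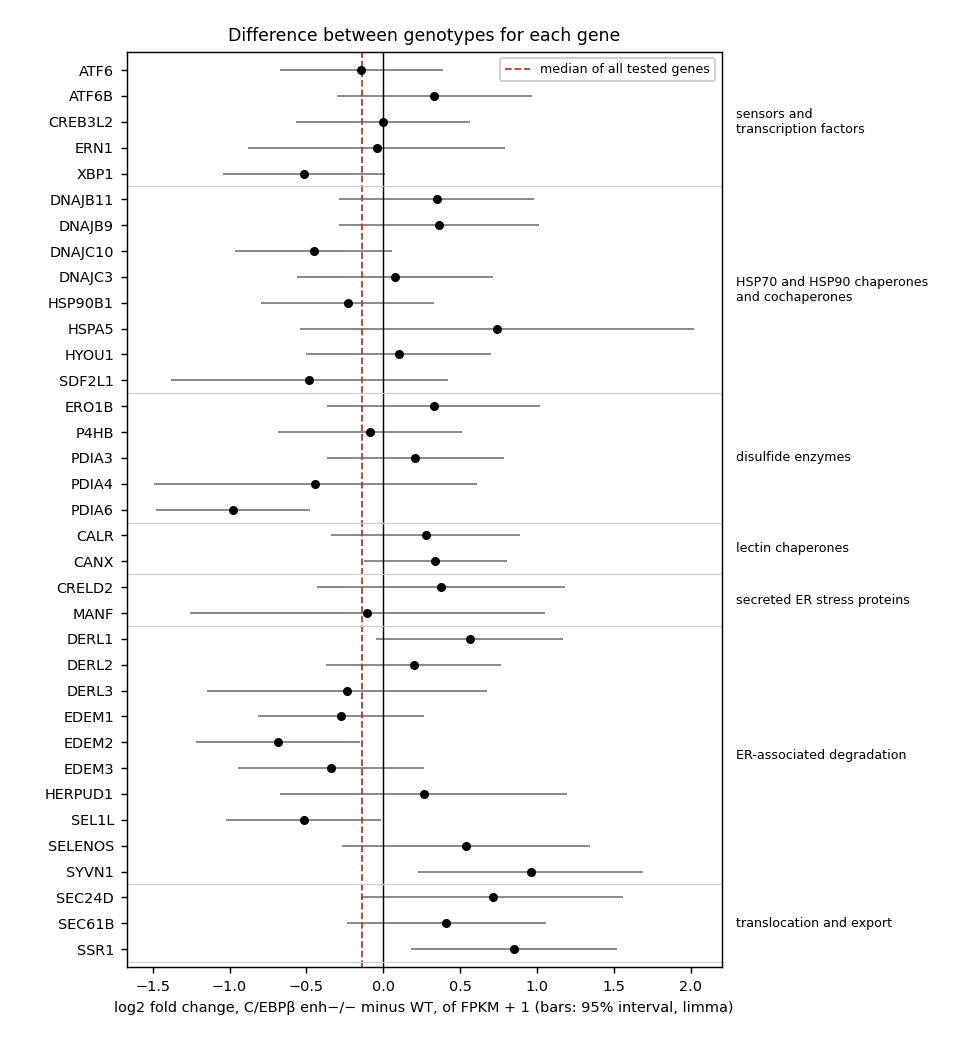
Log2 fold change of FPKM + 1 (C/EBPβ enh-/- minus WT) for each of the 35 genes, with the 95% interval from limma (n = 2 per genotype). The dashed line marks the median of all tested genes, −0.14, and the interval of PDIA6, from −1.48 to −0.48, lies farthest below 0.

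Among the 5 sensors and transcription factors, none passed the test and their median log2 fold change was −0.04. XBP1, the factor spliced by IRE1 (ENSG00000100219.12, chromosome 22 from 29190543 to 29196585 on GRCh37, minus strand), was at 100.3 and 80.5 FPKM in WT libraries 1 and 2 and at 64.6 and 60.6 in C/EBPβ enh-/- libraries 1 and 2. Both of the latter were lower than either WT library. The means were 90.4 ± 13.99 and 62.6 ± 2.83 (SD, n = 2), and the log2 fold change of −0.51 (95% interval −1.04 to 0.01) had an adjusted p of 0.248 from limma.
ERN1, which encodes IRE1α, was at 2.69 and 1.51 in WT cells and at 2.81 and 1.28 in C/EBPβ enh-/- cells. In both genotypes library 1 was the higher one, and the genotypes overlapped completely (log2 fold change −0.04, 95% interval −0.88 to 0.79).
ATF6, the Golgi-cleaved factor, was at 17.5 and 14.5 against 15.3 and 13.4, again with overlap and with library 1 above library 2 in each genotype (log2 fold change −0.14, 95% interval −0.67 to 0.39). Its paralog ATF6B and the related factor CREB3L2 ranged from 8.12 to 14.1 and from 7.54 to 10.2. With centring on the median gene, the signs of ERN1, ATF6 and CREB3L2 turned. ATF6B was the only one of the 5 with WT library 2 above WT library 1.

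The chaperones of the HSP70 and HSP90 families and their cochaperones (8 genes) had a median log2 fold change of 0.09, and none passed the test. HSPA5, the ER HSP70 (ENSG00000044574.7, chromosome 9 from 127997132 to 128003661 on GRCh37, minus strand), was at 26.3 and 51.5 FPKM in WT cells and at 109 and 35.6 in C/EBPβ enh-/- cells. C/EBPβ enh-/- library 1 was the highest, and library 2 lay between the WT libraries. The log2 fold change of 0.74 had a standard error of 0.54 and a 95% interval from −0.54 to 2.02, and without C/EBPβ enh-/- library 1 it was −0.05.
HSP90B1, the ER HSP90 known as GRP94 (ENSG00000166598.8, chromosome 12 from 104323885 to 104347709 on GRCh37, plus strand), was steadier. It was at 264 and 369 in WT cells and at 259 and 272 in C/EBPβ enh-/- cells, with WT library 2 the highest. The log2 fold change was −0.23 (95% interval −0.80 to 0.33) and 0.0008 after rescaling without the 7 highest genes.
The ratio of these 2 chaperones does not depend on how a library is scaled. HSP90B1 was 10.0 and 7.17 times HSPA5 in WT libraries 1 and 2, 2.39 times in C/EBPβ enh-/- library 1 and 7.65 times in library 2. C/EBPβ enh-/- library 1 thus stood apart in this ratio, and library 2 lay within the range of the WT libraries.

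SDF2L1, which binds HSPA5 together with ER J-domain proteins (chromosome 22 from 21996591 to 21998588 on GRCh37, plus strand), was at 20.1 and 41.8 FPKM in WT cells and at 25.4 and 16.6 in C/EBPβ enh-/- cells. WT library 2 was the highest and C/EBPβ enh-/- library 2 the lowest, with overlap between genotypes. SDF2L1 had a log2 fold change of −0.48 (95% interval −1.38 to 0.42), which was 0.03 without WT library 2.
DNAJB9, a J-domain cochaperone that is a target of XBP1, was at 3.35 and 4.51 in WT cells and at 6.49 and 4.30 in C/EBPβ enh-/- cells, so the genotypes overlapped (log2 fold change 0.36, 95% interval −0.28 to 1.01). DNAJC10, a cochaperone that reduces disulfide bonds, was at 33.7 and 29.2 against 23.9 and 21.5, and neither C/EBPβ enh-/- library reached a WT library (log2 fold change −0.45, adjusted p = 0.285, limma). The remaining 3, DNAJB11 (34.5 to 60.7 FPKM), DNAJC3 (11.7 to 18.6) and the HSP70 relative HYOU1 (31.4 to 46.1), overlapped between genotypes, with log2 fold changes of 0.08 to 0.35.

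Of the 5 disulfide enzymes, PDIA6 (ENSG00000143870.8, chromosome 2 from 10923517 to 10978103 on GRCh37, minus strand) was at 159 and 187 FPKM in WT cells and at 87.5 and 86.8 in C/EBPβ enh-/- cells. Neither C/EBPβ enh-/- library came near a WT library, and the means were 173 ± 19.9 and 87.1 ± 0.450 (SD, n = 2). The log2 fold change was −0.98 (standard error 0.21, 95% interval −1.48 to −0.48) and the adjusted p was 0.0743 from limma, above the threshold of 0.05. When the test was run on protein-coding genes alone, an alternative chosen after seeing the data, the adjusted p was 0.0398, and 4.19% of those genes were called lower. Set against PDIA3 in the same library, PDIA6 was 1.54 and 1.43 times as high in WT cells and 0.573 and 0.732 times as high in C/EBPβ enh-/- cells. This ratio does not depend on scaling, and the genotypes did not overlap in it. With P4HB in place of PDIA3 they were also apart, but with PDIA4, which differed widely between the WT libraries, they overlapped. ATP6V1C2, which overlaps 1033 exonic bases of PDIA6 on the other strand, was at 0.103 to 0.242 FPKM. PDIA3 shares 622 exonic bases with ELL3 on the other strand, at 2.91 to 4.67 FPKM, and its copy PDIA3P1 was at 2.15 to 2.87.
PDIA4, a large isomerase, was at 37.8 and 105 FPKM in WT cells and at 46.3 and 46.0 in C/EBPβ enh-/- cells. WT library 2 was above the other 3 libraries, which lay close together. The log2 fold change of −0.44 (95% interval −1.49 to 0.61) became 0.28 without WT library 2.
PDIA3, which works with the lectin chaperones on glycoproteins, and P4HB, the archetypal isomerase, overlapped between genotypes at 103 to 153 and 132 to 186 FPKM. ERO1B, an oxidase that recharges the isomerases, was near the filter, at 1.15 and 0.929 against 1.96 and 1.21. Both of its C/EBPβ enh-/- values lay above both WT values, the second by little (log2 fold change 0.33, adjusted p = 0.560, limma).

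The lectin chaperones hold newly made glycoproteins until they are folded. CANX was at 489 and 519 FPKM in WT cells and at 624 and 649.6 in C/EBPβ enh-/- cells, with no overlap. The difference was 0.34 on the log2 scale (95% interval −0.13 to 0.80, adjusted p = 0.368, limma). Its soluble partner CALR was at 329.8 and 494 against 529 and 452, so the genotypes overlapped.
MANF, a secreted protein that is released when the ER is depleted of calcium (chromosome 3 from 51422722 to 51426828 on GRCh37, plus strand), was at 30.2 and 95.1 in WT cells and at 47.4 and 52.6 in C/EBPβ enh-/- cells. Both C/EBPβ enh-/- values lay between the WT values. MANF had a log2 fold change of −0.10 (standard error 0.49, 95% interval −1.26 to 1.05), which was 0.71 without WT library 2 and 0.07 after centring on the median gene. CRELD2, which is also released under ER stress, was at 9.34 and 19.5 against 16.9 and 18.8. As for MANF, its C/EBPβ enh-/- values lay between the WT values.

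**Figure D3:**
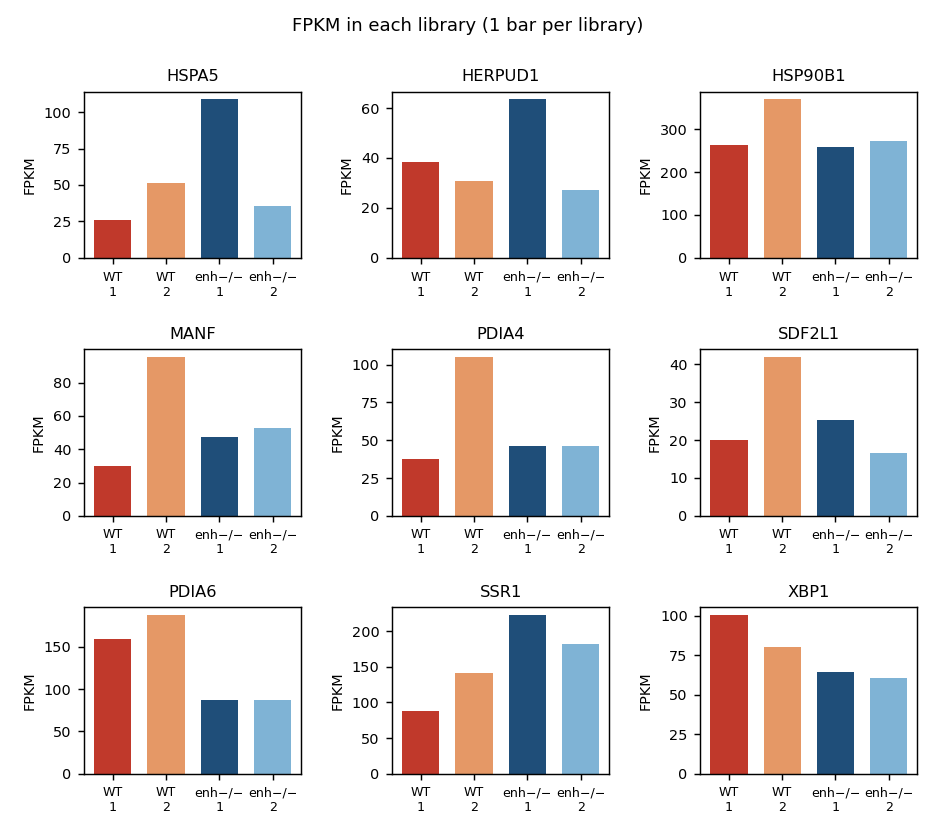
FPKM of 9 genes in each of the 4 libraries (1 bar per library, axes from 0, no error bars because each bar is 1 library). HSPA5 and HERPUD1 are highest in C/EBPβ enh-/- library 1 at 109 and 63.4, MANF, PDIA4 and SDF2L1 are highest in WT library 2 at 95.1, 105 and 41.8, and the genotypes separate for PDIA6, SSR1 and XBP1.

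ER-associated degradation draws misfolded proteins back to the cytosol. Its 10 members split, with 5 log2 fold changes above 0 and 5 below and a median of −0.02, beside 4677 above 0 of the 12491 tested genes. HERPUD1, a membrane protein of the degradation complex (ENSG00000051108.10, chromosome 16 from 56966054 to 56978776 on GRCh37, plus strand), was at 38.5 and 30.8 FPKM in WT cells and at 63.4 and 27.1 in C/EBPβ enh-/- cells. C/EBPβ enh-/- library 1 was the highest of the 4 and library 2 the lowest. The log2 fold change of 0.26 (95% interval −0.67 to 1.20) was −0.34 without C/EBPβ enh-/- library 1.
SEL1L and SYVN1 encode the 2 core partners of the best studied ER ubiquitin ligase, SYVN1 being the ligase HRD1, and their values went opposite ways. SEL1L (chromosome 14 from 81937891 to 82000197 on GRCh37, minus strand) was at 22.5 and 23.7 in WT cells and at 16.7 and 14.9 in C/EBPβ enh-/- cells. Its log2 fold change was −0.52 (95% interval −1.02 to −0.02, adjusted p = 0.228, limma), with no overlap.
SYVN1 (chromosome 11 from 64889252 to 64902003 on GRCh37, minus strand) was at 3.28 and 5.99 against 11.3 and 8.20, also with no overlap. Its log2 fold change was 0.96 (95% interval 0.23 to 1.69, adjusted p = 0.152, limma), and 0.61 without WT library 1. It shares 130 exonic bases with FAU on the same strand, a gene at 258 to 338 FPKM, and 356 with MRPL49 on the other strand, at 24.0 to 42.4 FPKM, so its level is uncertain.
The EDEM proteins trim or recognize the sugars of misfolded glycoproteins. EDEM2 was at 17.8 and 21.1 in WT cells and at 10.8 and 12.7 in C/EBPβ enh-/- cells, and EDEM1 was at 5.28 and 5.45 against 4.73 and 3.84. In both genes the genotypes did not overlap, with log2 fold changes of −0.68 (adjusted p = 0.158, limma) and −0.27 (adjusted p = 0.535), while EDEM3, at 7.97 to 13.8 FPKM, overlapped.
The derlins are membrane parts of the channel through which substrates leave. DERL1 was at 20.3 and 24.3 against 39.8 and 27.8, without overlap (log2 fold change 0.56, adjusted p = 0.268, limma), and the change was 0.31 without C/EBPβ enh-/- library 1. DERL2, at 20.8 to 30.2 FPKM, overlapped between genotypes. DERL3, at 0.653 to 2.18 FPKM, shares 2923 of its 3796 annotated exonic bases with SMARCB1 on the other strand, a gene at 19.0 to 33.7 FPKM. Whether the counting used strand is not given in the sources used here, so the values of DERL3 are uncertain. SELENOS, a selenoprotein of the same complex, was at 16.5 and 23.1 against 39.5 and 20.9, with C/EBPβ enh-/- library 1 the highest and overlap between genotypes.

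All 3 members of translocation and export had a log2 fold change above 0, with a median of 0.71, beside 4677 above 0 of the 12491 tested genes. SSR1, a subunit of the complex beside the translocon through which new proteins enter the ER (chromosome 6 from 7268539 to 7347679 on GRCh37, minus strand), was at 87.9 and 141 FPKM in WT cells and at 222 and 182 in C/EBPβ enh-/- cells. Both C/EBPβ enh-/- values lay above both WT values. The means were 114 ± 37.3 and 202 ± 28.6 (SD, n = 2), and the log2 fold change of 0.85 (95% interval 0.18 to 1.52) had an adjusted p of 0.160 from limma. SEC24D, a cargo-binding part of the COPII coat, was at 6.07 and 12.4 against 18.3 and 12.2. The translocon subunit SEC61B was at 53.3 and 81.3 against 98.3 and 78.5. In both genes WT library 1 was the lowest and C/EBPβ enh-/- library 1 the highest, and WT library 2 and C/EBPβ enh-/- library 2 were nearly level. The sizes of these changes rested on single libraries. Without WT library 1 the log2 fold changes of SSR1, SEC24D and SEC61B were 0.51, 0.25 and 0.11. Without C/EBPβ enh-/- library 1, SEC24D was at 0.44 and SEC61B at 0.25, and without WT library 2 they were at 1.17 and 0.71.

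Inside WT cells, the members were mostly higher in library 2. This was so for 28 of the 35, where 50.8% of all tested genes were higher in library 2, and the median log2 difference (library 2 minus library 1) was 0.34 for the members and 0.0074 for all tested genes. The difference reached 1 in size for MANF (1.62), PDIA4 (1.45) and SDF2L1 (1.02), 3 of the 35, as it did for 3.35% of all tested genes. CRELD2 (0.98), HSPA5 (0.95) and SEC24D (0.92) came just under that size. The secreted proteins MANF and CRELD2 had the highest median of any role, 1.30. The sensors and transcription factors went the other way, with a median of −0.25 and 4 of the 5, among them ERN1 (−0.56) and XBP1 (−0.31), lower in library 2. The count of 28 was the same under the 3 other scalings tried, and the members' median stayed between 0.31 and 0.37. These scalings left the WT median of all tested genes between −0.02 and 0.03, so they could hardly move this count.

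Inside C/EBPβ enh-/- cells, 27 of the 35 members were lower in library 2, where 58.9% of all tested genes were, with a median log2 difference (library 2 minus library 1) of −0.29 for the members and −0.09 for all tested genes. Scaling moved the members and all genes together. After rescaling to the same total, 16 of the 35 and 30.8% of all tested genes were lower in library 2, with medians of 0.03 and 0.20. After centring on the median gene these were 24 and 48.7%, with medians of −0.18 and 0.01, and after rescaling without the 7 highest genes 22 and 44.5%, with medians of −0.11 and 0.05. The members' median was below that of all tested genes under each of these scalings, though its sign was not the same in each. HSPA5 (−1.58) and HERPUD1 (−1.20) were the 2 of 35 members with a difference of at least 1 in size, against 5.07% of all tested genes. For HSPA5 the difference was −1.25 to −1.48 under the other scalings, and for HERPUD1 it was −0.86 to −1.09, falling under 1 in size after rescaling to the same total. DERL3, whose level is uncertain, was at 0.92 and passed 1 under the other scalings, at 1.10 after rescaling to the same total, 1.03 after centring and 1.05 after rescaling without the 7 highest genes. MANF, CRELD2 and PDIA4, far apart between the WT libraries, were at 0.15, 0.15 and −0.01 between the C/EBPβ enh-/- libraries, and at 0.48, 0.47 and 0.32 after rescaling to the same total. The pooled SD of the log2 values within genotypes had a median of 0.30 over the members and 0.23 over all tested genes.

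**Figure D4:**
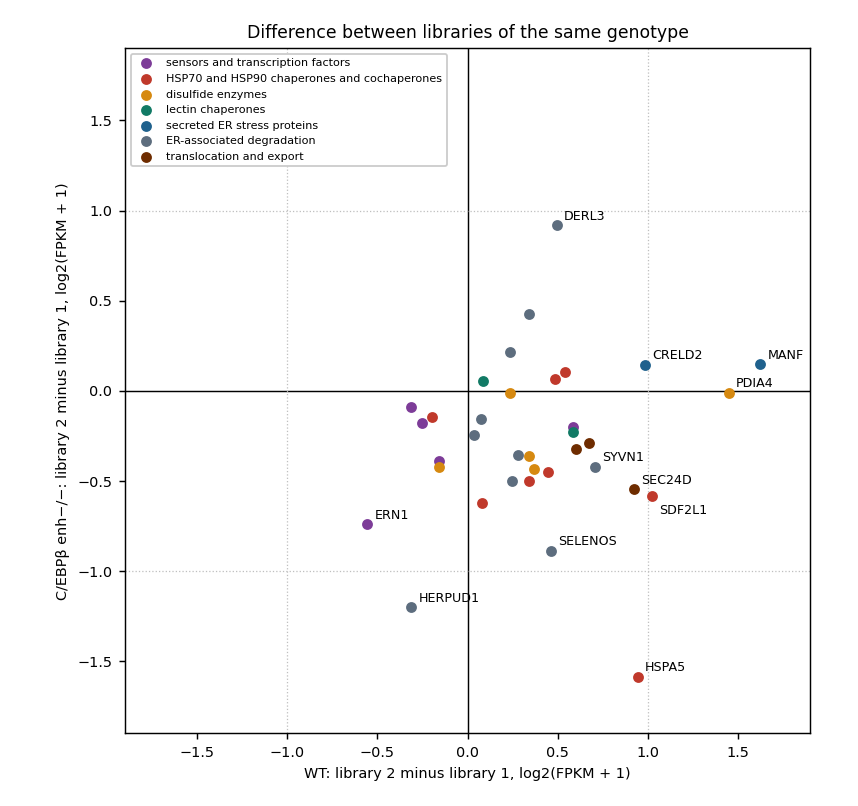
Difference in log2(FPKM + 1) between libraries 2 and 1 of the same genotype, WT on the horizontal axis and C/EBPβ enh-/- on the vertical axis, 1 point per gene coloured by role, with dotted lines at a difference of 1. MANF (1.62) and PDIA4 (1.45) lie far right near 0 on the vertical axis, HSPA5 (−1.58) and HERPUD1 (−1.20) lie lowest, and 20 of the 35 genes are in the lower right quadrant, higher in WT library 2 and lower in C/EBPβ enh-/- library 2.

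Both directions together, higher in WT library 2 and lower in C/EBPβ enh-/- library 2, were seen in 20 of the 35 members (57.1%) and in 30.0% of all tested genes. The count was 12 (16.0% of all tested genes) after rescaling to the same total, 18 (24.4%) after centring on the median gene and 17 (21.0%) after rescaling without the 7 highest genes. The libraries share only a replicate number, and the differences in one genotype were measured on other libraries than those in the other.
The 11 members with an ERSE or ERSE-II were spread over the range of the members. Their log2 fold changes between genotypes ran from −0.98 for PDIA6 to 0.74 for HSPA5, with a median of 0.26 and 7 above 0. The 20 members without a match had a median of −0.02 and 9 above 0. Among all 12491 tested genes, 4677 were above 0. Between the WT libraries the medians of these 11 and 20 members were 0.48 and 0.34, with 8 of 11 and 16 of 20 higher in library 2, beside 50.8% of all tested genes. Between the C/EBPβ enh-/- libraries the medians were −0.09 and −0.30, with 7 of 11 and 17 of 20 lower in library 2, beside 58.9%.

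Of 67 other genes of the same machinery, 65 were tested, and CREB3L1 and CREB3L3 were below the filter. None was called in either direction, and the smallest adjusted p was 0.0738, for UGGT1. At an unadjusted p under 0.05, 3 were lower and 3 higher, beside the 16.9% and 3.86% of all tested genes, and the groups did not overlap for 15 lower and 14 higher, beside 37.5% and 15.1%. Their median log2 fold change was 0.05, near the 0.10 of the members. Between the WT libraries, 50 of the 65 were higher in library 2, beside 50.8% of all tested genes, and 45 to 51 were so under the 3 other scalings. Between the C/EBPβ enh-/- libraries, 51 of the 65 were lower in library 2, beside 58.9% of all tested genes. That count depended on scaling, and was 20 after rescaling to the same total (30.8% of all tested genes), 37 after centring (48.7%) and 32 after rescaling without the 7 highest genes (44.5%).
UGGT1, which tests whether glycoproteins are folded and returns those that are not to CANX and CALR, was at 23.8 and 25.1 FPKM in WT cells and at 8.69 and 12.6 in C/EBPβ enh-/- cells. Its log2 fold change of −1.15 lay farthest below 0 of the 16 other folding genes, where the cyclophilin PPIB was farthest above at 0.52. UGGT1 too passed the threshold (adjusted p = 0.0399, limma) when only protein-coding genes were tested, where 4.19% of the genes tested were called lower.
Among 19 genes of the translocon, signal peptidase and oligosaccharyltransferase, the signal peptidase subunit SEC11C was farthest above 0, at 37.0 and 39.7 against 123 and 61.6 FPKM (log2 fold change 1.16, adjusted p = 0.127, limma), and STT3B farthest below at −0.44. In the 10 other degradation genes the extremes were RNF139 at 0.26 and the ubiquitin-conjugating enzyme UBE2G2 at −0.74, and 5 of the 10 lay below WT in both C/EBPβ enh-/- libraries and 0 above, beside 37.5% and 15.1% of all tested genes. The 12 genes of ER to Golgi transport ran from −0.46 for SEC23A to 0.44 for SEC31A.
In the group that processes ATF6 or binds with it, 2 of the 3 NF-Y subunits, whose complex binds the CCAAT of the ERSE, were the extremes. NFYA was at 3.56 and 4.22 against 10.3 and 6.39 FPKM, and NFYC was at 20.9 and 13.96 against 8.82 and 8.44. The groups did not overlap in either gene, with log2 fold changes of 0.90 and −0.91 (adjusted p = 0.140 and 0.120, limma). Several of these extremes rested on single libraries. Without C/EBPβ enh-/- library 1 the log2 fold changes of SEC11C, NFYA, SEC31A and RNF139 were 0.67, 0.60, 0.21 and 0.0053, and without library 2 those of SEC31A and RNF139 were 0.66 and 0.52. PPIB was at 0.14 and SEC23A at −0.79 without WT library 1, and they were at 0.90 and −0.14 without WT library 2.

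The PERK arm, listed for contrast, had 0 of 9 genes called, beside 1.21% of all tested genes called lower and 0.248% higher. WT library 2 was below WT library 1 in 8 of the 9, EIF2AK3 being the exception, beside 48.9% of all tested genes, and the median log2 difference was −1.46, of the opposite sign to the 0.34 of the members. The difference between the WT libraries was at least 1 in size in 6 of the 9, beside 3.35% of all tested genes. In C/EBPβ enh-/- cells it was so in 2 of the 9, DDIT3 and PPP1R15A, named after their values were seen, both lower in library 2, beside 5.07%. After rescaling to the same total that count was 1, beside 6.23%. The counts of 8 and 6 were the same under the 3 other scalings, which hardly moved the WT libraries against each other.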

How the data were processed

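Libraries 1 and 2 of WT and of C/EBPβ enh-/- cells (RNA-seq, labelled HepG2) were grouped by the sample labels. The authors deposited 1 FPKM value per gene and library, in 57815 entries each, of which 57768 remained without the copies on chromosome Y, and 55535 identifiers matched a symbol. The submitters' processing notes name TopHat2 2.0.13, Cufflinks, edgeR and hg19, without roles, and the extraction text in the labels describes antibody-isolated chromatin beside an RNA-seq library. Scaling between libraries and strandedness are not given in the sources used here. FPKM is relative to the other genes of a library, so a few very high genes lower the rest. Read counts were not used here, and the number of libraries limits the precision.

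Values were taken as log2(FPKM + 1), which understates changes of low genes. The filter was a mean of 1 FPKM or more over the 4 libraries. For the test between genotypes, limma 3.58.1 was run in R 4.3.3 (lmFit, eBayes with trend, no replicate block), two-sided, and p-values were adjusted after Benjamini and Hochberg and called under 0.05. The exact permutation test of 2 against 2 libraries cannot give a p below 0.333 and was not used. Replicate differences have no test. Gene coordinates came from GENCODE release 44 lifted to GRCh37, and promoters from RefSeq on GRCh38.p14, with all motifs searched on both strands. Figures were drawn with matplotlib 3.10.9, and tables made with pandas 2.3.3 and numpy 2.4.6 under Python 3.11.15.

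The members and lists were chosen with earlier results of these data known. Values in every library were to be given for members past the threshold, with a log2 fold change or a replicate difference of at least 1 in size, and for HSPA5, HSP90B1, XBP1, ATF6, ERN1, HERPUD1, DNAJB9 and SEL1L. From the other lists, genes past the threshold and the extremes of each list were named. Other members given in full were picked after their values were seen. Alternative settings were a pseudocount of 0.1, limma run with no trend, a filter at a mean of 5 FPKM or none at all, centring on the median, an equal total in every library, leaving out genes at 0 in any library, a replicate block, leaving out each library, and a replicate step of 0.5. A fit of protein-coding genes and a rescaling without the 7 highest genes were added after seeing the data.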

Additional observations from a re-analysis of the deposited data

How the results depend on the processing

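Over 14 alternatives, 2 of them added after seeing the data, 20 of the 35 members kept the sign of their log2 fold change in each alternative in which they were tested (13 for the members under a mean of 5 FPKM) and 15 did not, 14 of these when 1 library was left out. PDIA6 was the 1 member that passed the threshold under any alternative, so the count of members lower became 1 with protein-coding genes only, where fewer genes were tested (10909) and 4.19% of them were called lower. Centring on the median turned the sign of ATF6 (0.032), CREB3L2 (0.17), ERN1 (0.13), MANF (0.070) and P4HB (0.088), and rescaling without the highest genes that of ATF6 (0.076), CREB3L2 (0.21), ERN1 (0.10), HSP90B1 (0.00076), MANF (0.12) and P4HB (0.15). These scalings moved the median of all tested genes from −0.14 to 0.03 and 0.06, and the members' median from 0.10 to 0.27 and 0.33.

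With each library left out in turn, the lone library of a genotype being assumed to vary like the others, no member was called, where 0.0721% to 0.176% of all tested genes were called lower and 0.024% to 0.16% higher. The log2 fold change ran from −0.015 to 0.57 for CALR, −0.20 to 0.19 for CREB3L2, −0.12 to 0.87 for CRELD2, −0.69 to 0.22 for DERL3, −0.24 to 0.39 for DNAJC3, −0.41 to 0.33 for ERN1, −0.34 to 0.86 for HERPUD1, −0.47 to 0.011 for HSP90B1, −0.050 to 1.53 for HSPA5, −0.17 to 0.37 for HYOU1, −0.92 to 0.71 for MANF, −0.30 to 0.13 for P4HB, −1.17 to 0.28 for PDIA4 and −0.99 to 0.031 for SDF2L1. The change moved by over 1.5 times without some library in 29 of the 35 members, and did not in CANX, DNAJC10, EDEM2, PDIA6, SEL1L and XBP1. The members' median ran from −0.03 to 0.31. The number of members whose C/EBPβ enh-/- values lay below all WT values ran from 7 to 15, against 47.2% to 54.5% of all tested genes, and above them from 5 to 19, against 21.7% to 33.2%, since fewer libraries had to be separated.

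The number of members above both WT libraries became 12 with rescaling to the same total, 14 with centring and 15 with rescaling without the highest genes, against 16.4%, 28.1% and 30.3% of all tested genes. The members with a replicate difference of at least 1 numbered 5 in WT and 4 in C/EBPβ enh-/- cells with a pseudocount of 0.1, which 5.56% and 9.64% of all tested genes reached, and 13 and 9 with a step of 0.5, which 18.9% and 26.2% of all tested genes reached. Where no construction of an alternative shows it, the cause was not tested. Both genotypes carry the replicate numbers 1 and 2. Libraries with the same number did not deviate together from the means of their genotypes (Pearson r = 0.0094 over 12491 genes, not independent of each other), so the numbers were not taken to pair the libraries. With the replicate block, 0 members were lower and 0 higher, beside 0.745% and 0.248% of all tested genes, and the members' median was 0.10. With 2 libraries per genotype, a member whose replicates differ as HSPA5 or MANF did has an interval over 2 log2 units wide, and a change within it was not detectable.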
